A study of Mus musculus with 10 samples.

Results

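Cholesterol is made from acetyl-CoA in a long chain of enzyme steps that begins in the cytosol and ends in the membrane of the endoplasmic reticulum. The brain makes nearly all of its own cholesterol, because lipoproteins of the blood do not cross its barrier, and growing neurons and glia need it for membranes. The genes of these enzymes are known targets of the transcription factor SREBP2, which is released when cell sterol is low. The enzymes described are 8 genes chosen by name. They are Hmgcs1 and Idi1 of the early (mevalonate) part, Fdps and Fdft1 of the isoprenoid middle, Sqle, Lss and Cyp51 of the first sterol steps, and Dhcr7 of the last reduction. Of these 8, the deposited table held 7 among its 6147 genes, and Cyp51 was not analysed here. All 7 had a mean above 1 TPM and were among the 6048 genes tested.

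The samples were neocortex of CD1 wild type mice, an outbred strain, collected at E12.5, E14, E15.5 or E17 (embryonic days) or at P0 (the day of birth). Each stage had 2 libraries of polyadenylated RNA, described as biological duplicates, and no mutation or treatment was given. Values are TPM, a share of transcripts corrected for gene length, so that levels of different genes can be compared within a library. TPM keep no read depth. In each library the rows of the table held from 68.9% to 71.7% of the total to which TPM are scaled.

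Libraries of a stage correlated at between 0.989 (E17) and 0.999 (E15.5) across genes, which are not independent replicates. Replicates were least alike at E17, where log2 differences had an SD of 0.285, against 0.088 to 0.176 elsewhere. Marker lists moved strongly with stage. The 14 neuronal maturation genes summed to between 2595 and 2644 TPM at E12.5 and between 9785 and 10553 TPM at P0. The 13 proliferation genes in the table summed to between 1788 and 1871 TPM at E12.5 and between 207 and 213 TPM at P0. From E14 to E15.5, where 33.3% of all genes were called lower, all 3 erythroid genes in the table (of 10) were called lower. Their summed means were 1928 and 9.55 TPM. The same held for both choroid plexus genes (2 of 7 in the table), with 1461 and 3.86 TPM, and for the 7 meningeal genes (of 8), with 727 and 84.4 TPM. Most of each sum at E14 came from 1 gene, namely Hbb-y (1907 TPM), Ttr (1435 TPM) and Igf2 (614 TPM). The erythroid gene Hbb-bh1 was listed at 0 in 2 libraries. Only 2 of 10 oligodendrocyte, 1 of 10 microglial and 1 of 9 vascular markers were in the table. The part of these cell types in the results below was not tested, and in whole tissue a change in the number of cells of a type and in RNA per cell cannot be told apart.

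Promoter sequence is shown for Hmgcs1, the most abundant of the enzymes, and for Lss, whose level at P0 was also above that at E12.5. RefSeq promoters (GRCm38.p6) matched 4 of the 7 genes, namely Hmgcs1, Idi1, Lss and Dhcr7. The 250 bases before the start site were searched on both strands for TCACNCCAC or its reverse complement GTGGNGTGA, the core of the sterol regulatory element that SREBP proteins bind, for CCAAT or its reverse complement ATTGG, the site of NF-Y, a known partner of SREBP, and for GGGCGG or its reverse complement CCGCCC, the GC box. No matches overlapped in the windows of Hmgcs1 and Lss. Capitals mark matches to TCACNCCAC and CCAAT, on either strand.
Hmgcs1, chr13:119690101-119690350, forward strand: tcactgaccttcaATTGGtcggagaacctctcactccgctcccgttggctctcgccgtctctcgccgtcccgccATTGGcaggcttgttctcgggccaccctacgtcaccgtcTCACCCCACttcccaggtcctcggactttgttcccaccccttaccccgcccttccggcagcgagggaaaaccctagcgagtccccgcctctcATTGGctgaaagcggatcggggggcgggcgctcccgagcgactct
Lss, chr10:76531355-76531587, forward strand, up to the base before the annotated gene: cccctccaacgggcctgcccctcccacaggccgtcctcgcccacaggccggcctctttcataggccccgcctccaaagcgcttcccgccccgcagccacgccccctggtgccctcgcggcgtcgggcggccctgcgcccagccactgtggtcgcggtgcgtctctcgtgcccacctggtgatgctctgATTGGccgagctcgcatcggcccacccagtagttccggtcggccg

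Hmgcs1 held 1 match to TCACNCCAC, between 137 and 129 bases before its start site, and 3 matches to CCAAT. Of 32851 windows of the same length over all RefSeq genes, 1.05% held TCACNCCAC and 33.8% held CCAAT. Lss held 1 CCAAT match and Idi1 held 2, and neither held TCACNCCAC in its window. The window of Idi1 ended at 8885605, past the annotated start of the gene at 8885501. Both its CCAAT matches, within 45 bases of the RefSeq start site, lay inside the annotated gene, as did its GC box. Dhcr7 has 3 start sites in RefSeq, with 0, 0 and 2 CCAAT matches and none to TCACNCCAC. Its window with 2 matches, from 143829964 to 143830213, lay inside the annotated gene, which starts at 143823145. The window from 143823149 to 143823398 did so too. GC boxes numbered 2 in Hmgcs1, 1 in Idi1, 2 in Lss and 1, 0 and 3 in the windows of Dhcr7, and 32.7% of all windows held one. These are matches of letters only.

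The enzymes differed widely in level. In each of the 10 libraries Hmgcs1 had the highest TPM, followed by Fdft1 and then Sqle, and Fdps was the lowest in each. Means over the 10 libraries were 329 TPM for Hmgcs1, 182 for Fdft1, 85.3 for Sqle, 44.1 for Idi1, 42.8 for Lss, 39.0 for Dhcr7 and 2.66 for Fdps. The order of Idi1, Lss and Dhcr7 changed with stage. In the 4 libraries of E12.5 and E14, Idi1 was above Dhcr7 and Dhcr7 above Lss. From E15.5 on, Lss was above both in all 6 libraries. Idi1 and Dhcr7 changed places between the replicates of E17 and of P0, so their order at those stages was within the spread.

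Each of the 7 enzymes varied over the 5 stages. In limma's moderated F test all 7 had a Benjamini-Hochberg adjusted p under 0.05, as did 82.9% of all genes tested, with adjusted p between 6.55e-05 (Sqle) and 0.00386 (Hmgcs1). From E12.5 to P0, 6 of 7 were called in limma, 4 higher and 2 lower, where 78.2% of all genes were called, 27.1% higher and 51.0% lower. The median change was 0.35 on the log2(TPM + 1) scale over the 7 enzymes and -0.27 over all genes. Median-of-ratios scaling, under which the median of all genes was -0.0067, moved 5 of the 6 called changes by over 1.5 times without ending a call. They became 0.71 for Hmgcs1, 0.66 for Fdft1, 0.62 for Lss, -0.49 for Idi1 and -0.40 for Dhcr7. On the log2(TPM + 1) scale the change of a gene of low TPM, such as Fdps (mean 2.66 TPM), comes out too small. The summed TPM of the 7 was 674 and 709 at E12.5, 636 and 624 at E14, 669 and 702 at E15.5, 787 and 831 at E17, and 763 and 850 at P0. Both E17 and both P0 libraries were above all 6 earlier ones. Hmgcs1 made up between 40.2% and 53.8% of each sum.

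**Figure D1:**
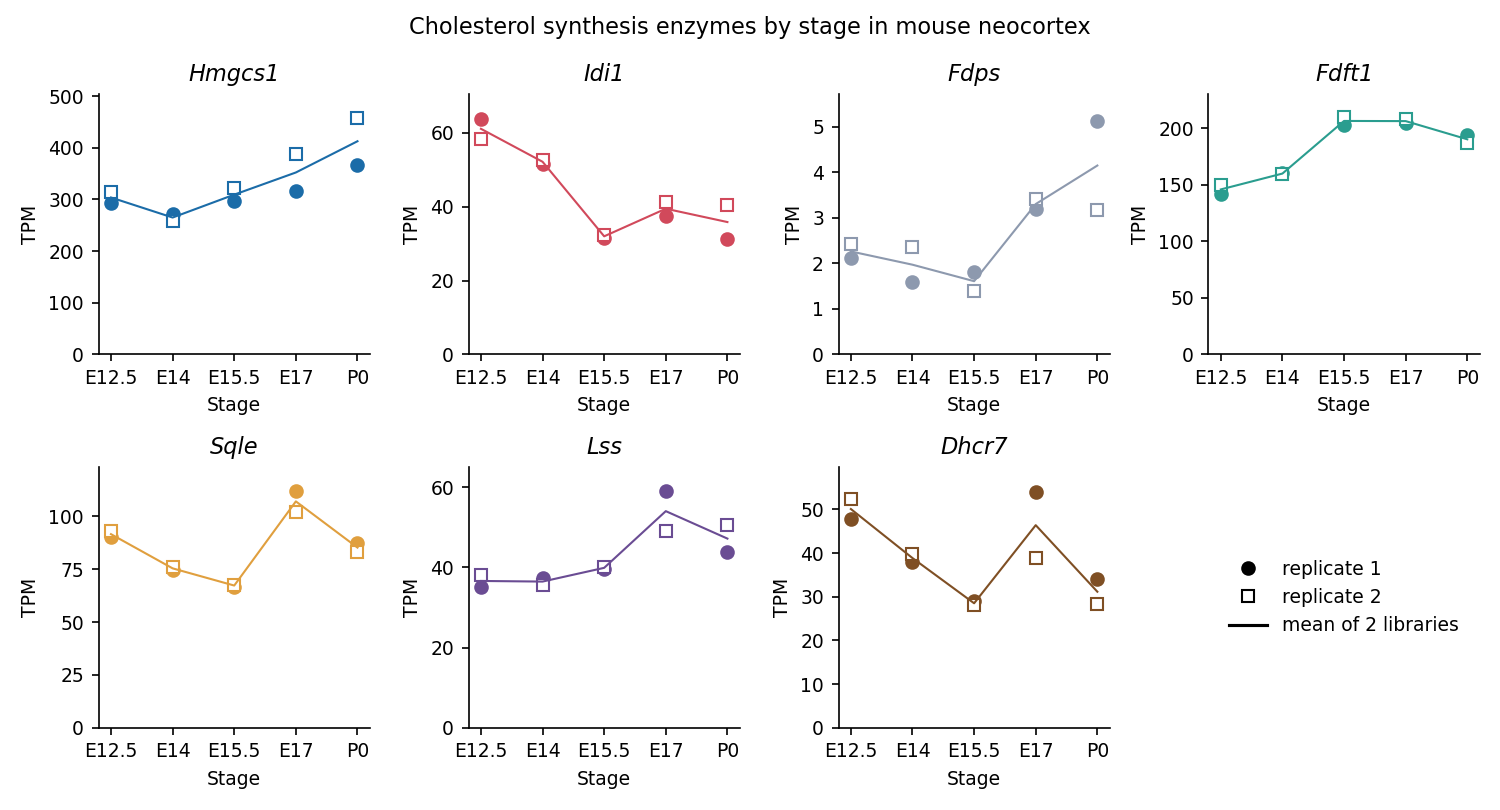
TPM of each enzyme gene (vertical axes, each from 0) at the 5 stages (horizontal axes), with filled circles for replicate 1, open squares for replicate 2 and a line through the mean of the 2 libraries. Sqle and Dhcr7 dipped at E15.5, with means of 67.3 and 28.5 TPM, and stood at 107 and 46.4 TPM at E17, whereas Fdft1 stayed near 207 TPM at both stages.

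Hmgcs1 (chromosome 13, 119690379 to 119708260, forward strand, GRCm38) encodes the cytosolic synthase that makes HMG-CoA, the precursor of mevalonate. Its TPM were 293 and 315 at E12.5, 272 and 258 at E14, 297 and 322 at E15.5, 317 and 388 at E17, and 368 and 458 at P0. The lowest values were those of E14, and both P0 libraries lay above both E12.5 libraries, although the SD at P0 was 63.7 TPM. Hmgcs1 rose from E12.5 to P0 by 0.43 (SE 0.12, adjusted p 0.00536), or 1.36-fold in mean TPM. No single step passed the test, with changes between -0.20 (95% interval -0.45 to 0.063) and 0.23 (-0.032 to 0.49). The call over the whole period was lost when P0 replicate 2 was left out (0.28, adjusted p 0.0728).

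Idi1 (chromosome 13, 8885501 to 8892451, forward strand) encodes the isomerase that turns isopentenyl into dimethylallyl diphosphate. Its TPM were 63.8 and 58.4 at E12.5, 51.6 and 52.8 at E14, 31.6 and 32.4 at E15.5, 37.6 and 41.4 at E17, and 31.2 and 40.5 at P0. The 4 libraries of E12.5 and E14 lay above the 6 later ones. Idi1 fell by 0.69 from E14 to E15.5 (SE 0.12, adjusted p 0.000451), and by 0.76 from E12.5 to P0 (SE 0.12, adjusted p 8.09e-05). Of the stretches of 50 bases in its transcripts, 20.0% also occurred on the same strand in transcripts of other annotated genes, among them 4 pseudogenes, so reads of Idi1 could have been split or dropped in the counting.

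Fdps (chromosome 3, 89093588 to 89101959, reverse strand) encodes farnesyl diphosphate synthase, the branch point to sterols and to protein prenylation. It was listed at only 2.11 and 2.41 TPM at E12.5, 1.58 and 2.36 at E14, 1.81 and 1.40 at E15.5, 3.19 and 3.42 at E17, and 5.12 and 3.18 at P0. All 4 libraries of E17 and P0 lay above the 6 earlier ones. Its change between E15.5 and E17 was 0.73 (SE 0.18, adjusted p 0.0161) and that from E12.5 to P0 0.63 (SE 0.18, adjusted p 0.0078). The latter was not called without E12.5 replicate 1 (0.57, adjusted p 0.0541) or P0 replicate 1 (0.36, adjusted p 0.114). With a pseudocount of 10 TPM the changes were 0.20 and 0.20, both called, and quantile normalization gave 1.21 for the latter. Of the 50-base stretches in its transcripts, 64.1% also occurred in transcripts of 8 other annotated genes, 7 of them pseudogenes, and a predicted gene on the same strand, Gm43738, overlaps it. The sources used here do not give how such reads were counted, so the level and the changes of Fdps are uncertain.

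Fdft1 (chromosome 14, 63145150 to 63179578, reverse strand) encodes squalene synthase, the first enzyme committed to sterols. Its TPM were 142 and 150 at E12.5, 161 and 160 at E14, 203 and 210 at E15.5, 204 and 209 at E17, and 194 and 187 at P0. The groups of E12.5, E14 and E15.5 did not overlap, while E15.5 and E17 did. Fdft1 rose by 0.37 from E14 to E15.5 (SE 0.07, adjusted p 0.00098) and by 0.38 from E12.5 to P0 (SE 0.07, adjusted p 0.000318). From E15.5 to E17 its change was near 0 (95% interval -0.15 to 0.15). Ctsb overlaps it on the other strand, and 30.7% of its 50-base stretches were shared with Ctsb or a pseudogene when both strands were counted, against 10.9% on its own strand. Whether the counting used strand is not given.

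Sqle (chromosome 15, 59315077 to 59331192, forward strand) encodes squalene epoxidase, a second point of control in the pathway. It stood at 90.2 and 92.9 TPM at E12.5, 74.7 and 76.1 at E14, 66.8 and 67.7 at E15.5, 112 and 102 at E17, and 87.2 and 83.2 at P0. No 2 neighbouring stages overlapped. Sqle fell by 0.28 from E12.5 to E14 (SE 0.08, adjusted p 0.0443), rose by 0.66 from E15.5 to E17 (SE 0.08, adjusted p 0.000298) and fell by 0.32 from E17 to P0 (SE 0.08, adjusted p 0.00625). From E12.5 to P0 the change was -0.10 (95% interval -0.27 to 0.063, adjusted p 0.229), and it was 0.17 (adjusted p 0.0475) under median-of-ratios scaling. Its transcripts shared none of their 50-base stretches with other annotated genes.

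Lss (chromosome 10, 76531588 to 76557138, forward strand) encodes lanosterol synthase, which closes the sterol rings. Its TPM were 35.2 and 38.1 at E12.5, 37.4 and 35.5 at E14, 39.6 and 40.1 at E15.5, 59.0 and 49.0 at E17, and 43.7 and 50.6 at P0. Each E17 and P0 library was above each of the 6 earlier ones, and E17 and P0 overlapped. Lss rose by 0.42 from E15.5 to E17 (SE 0.11, adjusted p 0.017) and by 0.35 from E12.5 to P0 (SE 0.11, adjusted p 0.0104). The call from E12.5 to P0 was lost without E12.5 replicate 1 (0.30, adjusted p 0.0808) and without P0 replicate 2 (0.25, adjusted p 0.092).

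Dhcr7 (chromosome 7, 143823145 to 143848410, forward strand) encodes the reductase that acts on 7-dehydrocholesterol in the last step of the Kandutsch-Russell branch, and its loss in people causes Smith-Lemli-Opitz syndrome. Its TPM were 47.9 and 52.3 at E12.5, 37.9 and 39.8 at E14, 29.0 and 28.0 at E15.5, 54.0 and 38.8 at E17, and 34.1 and 28.3 at P0. The replicates of E17 (SD 10.7 TPM) were the highest of the 10 values and one near their middle. Dhcr7 fell by 0.43 from E14 to E15.5 (SE 0.14, adjusted p 0.0237), rose by 0.66 from E15.5 to E17 (SE 0.14, adjusted p 0.00712) and fell by 0.55 from E17 to P0 (SE 0.14, adjusted p 0.0105). Over the whole period Dhcr7 fell by 0.67 (SE 0.14, adjusted p 0.00099). The step from E14 to E15.5 lost its call without any 1 of the 4 libraries compared, with adjusted p between 0.0713 and 0.120, and the fall from E17 to P0 without P0 replicate 2 (-0.42, adjusted p 0.0933). Without E17 replicate 1 the changes into and out of E17 were 0.43 (adjusted p 0.00612) and -0.31 (adjusted p 0.0264).

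Between neighbouring stages the enzymes moved as follows. From E12.5 to E14, 0 were called higher and 1 lower (Sqle), where 8.73% of all genes were called, 3.95% higher and 4.78% lower. This call of Sqle was lost under both other scalings and without any 1 of the 4 libraries compared, where its value ran from -0.30 to -0.26. Each fit without 1 of these 4 libraries left 1 in its stage and called fewer of all genes. From E14 to E15.5, 1 was called higher (Fdft1) and 2 lower (Idi1 and Dhcr7), where 51.7% of all genes were called, 18.4% higher and 33.3% lower. With median-of-ratios scaling or quantile normalization Lss was also higher at this step, which gave 2 higher and 2 lower. Those scalings called 3131 and 3194 of the 6048 genes, 1576 and 1565 of them higher. From E15.5 to E17, 4 were called higher (Fdps, Sqle, Lss and Dhcr7) and 0 lower, where 25.0% of all genes were called, 14.4% higher and 10.6% lower. Idi1 and Hmgcs1 had positive values of 0.29 (adjusted p 0.0856) and 0.18 (adjusted p 0.283). From E17 to P0, 0 were called higher and 2 lower (Sqle and Dhcr7), where 41.7% of all genes were called, 12.9% higher and 28.8% lower. Quantile normalization added Fdps as higher at that step (0.60, adjusted p 0.0156), and the value of Sqle was -0.21 under median-of-ratios scaling. The call of Sqle was lost with array weights (adjusted p 0.120) and with the 4 libraries of the step alone (adjusted p 0.110). Of the 6048 genes, 1145 and 1126 were called in those fits.

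**Figure D2:**
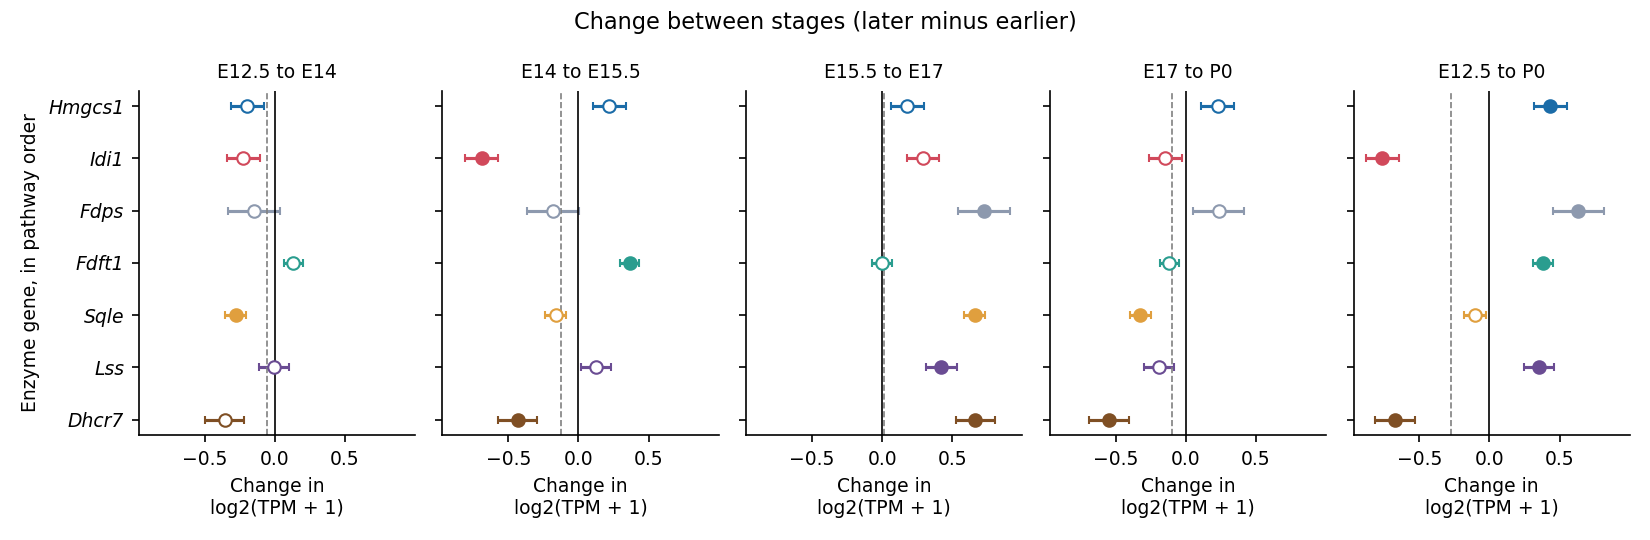
Change in log2(TPM + 1), later minus earlier stage (horizontal axes), for the 7 enzyme genes in pathway order (vertical axis), with 1 panel per comparison. Bars are standard errors from limma, filled points have an adjusted p under 0.05, and the dashed line is the median of all genes tested. The filled points from E15.5 to E17 are Fdps, Sqle, Lss and Dhcr7, between 0.42 and 0.73, and those from E12.5 to P0 lie on both sides of 0.

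Of the 4 rises from E15.5 to E17, that of Sqle was called in each of 20 alternatives, between 0.60 and 0.73, and the other 3 lost their call in some. Without E15.5 replicate 1 the step had 2 calls and without E15.5 replicate 2 it had 1, Sqle. Without E17 replicate 1, which left 1 library at E17, Hmgcs1 had a value of 0.33 and Idi1 of 0.36, against 0.18 and 0.29 with all 10 libraries. With the 4 libraries of the step alone the step had 1 call, where 120 of all 6048 genes were called. Leaving out either E15.5 library also lowered the calls over all genes. At the same step, with all 10 libraries, 14.4% of all genes were called higher and 10.6% lower. All 13 proliferation genes tested were called lower, 9 of 14 neuronal maturation genes higher, and 5 of 7 astrocyte lineage genes higher and 1 lower. Of 8 radial glia genes tested, 1 was called higher and 5 lower. From E17 to P0, leaving out E17 replicate 2, which left 1 library at E17, gave 0.37 for Hmgcs1 and -0.32 for Lss. With all 10 libraries these values were 0.23 and -0.19.

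Ratios within a library do not depend on the total to which TPM are scaled. The pairs were chosen after their values were seen, so they are given with no test. Idi1 stood at 0.450 and 0.389 of Fdft1 at E12.5, at 0.321 and 0.331 at E14, at 0.156 and 0.154 at E15.5, at 0.184 and 0.198 at E17, and at 0.161 and 0.217 at P0. Between E12.5 and E15.5 this ratio of an early to a middle enzyme went from 0.419 ± 0.043 to 0.155 ± 0.00103 (SD, n = 2 each), and the later libraries did not return to the values of E12.5 or E14. Sqle to Fdft1, neighbouring enzymes in the pathway, went from 0.627 ± 0.0125 at E12.5 to 0.326 ± 0.0051 at E15.5 and stood at 0.519 ± 0.0405 at E17 and 0.447 ± 0.0029 at P0. Dhcr7 to Hmgcs1, the last and the first of the enzymes, was 0.165 ± 0.0018 at E12.5 and 0.0772 ± 0.0219 at P0. At E17 it was 0.135 ± 0.0499, with replicate 1 (0.171) above both E12.5 libraries and replicate 2 close to those of E15.5.

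**Figure D3:**
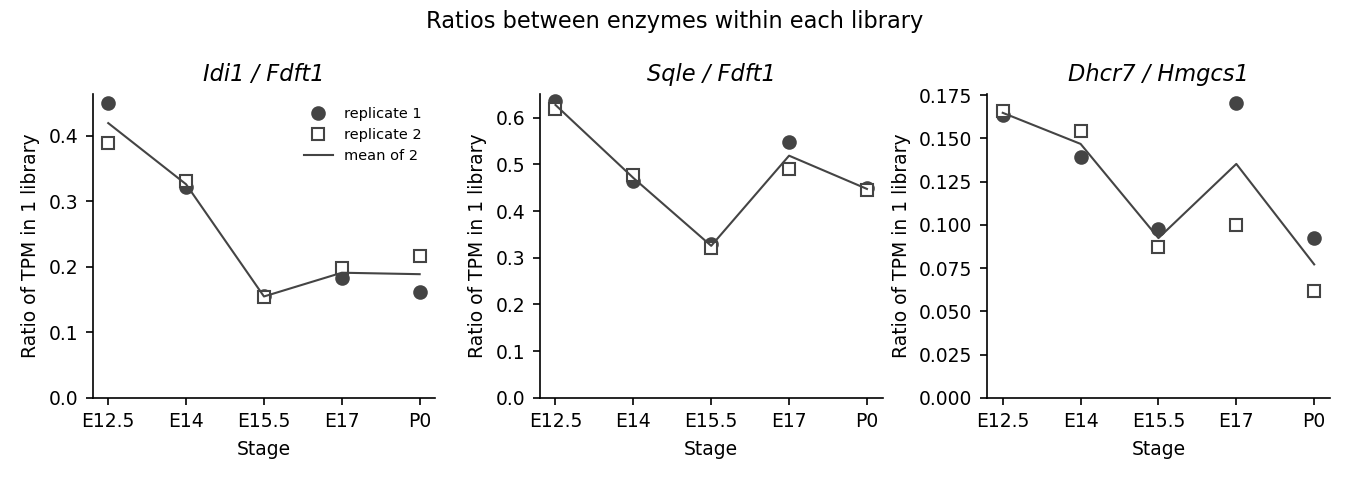
Ratios of TPM between pairs of enzymes within each library (vertical axes, from 0) by stage (horizontal axes), with filled circles for replicate 1, open squares for replicate 2 and a line through the mean of the 2 libraries. Idi1 to Fdft1 is lowest at E15.5 (0.155) and stays below 0.22 afterwards, and the E17 replicates of Dhcr7 to Hmgcs1 lie far apart, the higher at 0.171.

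The enzymes were not one pattern over the 10 libraries. Pearson correlations between pairs on log2(TPM + 1), given as a description of libraries that share stages, ran from -0.92 (Fdft1 and Idi1) to 0.73 (Dhcr7 and Sqle). The pattern of the 7 together was taken as the mean of their centred log2 values. Among 5424 other genes whose mean reached 10 TPM, the 5 with the highest correlation to it over the 10 libraries were Emc7 (0.96), a subunit of a membrane protein insertase of the endoplasmic reticulum, Lpcat1 (0.91), an acyltransferase of phospholipids, Atp6ap2 (0.91), an accessory subunit of the vacuolar proton pump, Slc1a3 (0.90), a glutamate transporter of radial glia and astrocytes, and Minpp1 (0.90), an inositol phosphate phosphatase. Each had its lowest stage mean at E15.5, as did the pattern by which these genes were picked. Emc7 went from 37.0 TPM at E15.5 to 50.8 at E17, and Slc1a3 from 51.5 to 77.2. Slc1a3 is on the radial glia list, of which 8 genes were tested. At this step 1 of the 8 was called higher and 5 lower, where 14.4% of all genes were called higher and 10.6% lower.

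The other enzymes of the pathway reported here came from a list of 11, of which 7 were in the table and tested. From E15.5 to E17, 2 of these 7 were called higher and 0 lower, where 14.4% of all genes were called higher and 10.6% lower. Mvd, the mevalonate diphosphate decarboxylase, rose by 0.38 (adjusted p 0.0153) and Nsdhl, a sterol dehydrogenase, by 0.28 (adjusted p 0.025). Values for Mvk (0.26), Hsd17b7 (0.25), Pmvk (0.19), Acat2 (-0.067) and Lbr (-0.35) did not pass the test. Under median-of-ratios scaling the split was 2 higher and 1 lower, as Lbr passed, and under quantile normalization 1 and 1. Those scalings called 1753 and 1880 of the 6048 genes, 1002 and 913 of them higher. The calls of Mvd and Nsdhl were lost with the 4 libraries of the step alone (limma adjusted p 0.120 and 0.145) and with array weights (0.106 and 0.219). Those fits called 120 and 758 of the 6048 genes. Both calls were also lost without either E15.5 library, with values of 0.35 and 0.40 for Mvd and 0.27 and 0.28 for Nsdhl. That of Nsdhl was lost as well under quantile normalization (0.21, adjusted p 0.0722) and without either E12.5 library.

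From E12.5 to P0, 2 of the 7 were called higher and 4 lower, near the shares of all genes (27.1% higher and 51.0% lower). Mvd rose by 0.82 (adjusted p 7.7e-06) and Pmvk, phosphomevalonate kinase, by 0.56 (adjusted p 0.000116), and Mvk, mevalonate kinase, had a value of 0.23 (adjusted p 0.0594). Of the sterol enzymes, Lbr fell by 2.77 (adjusted p 5.62e-09), Hsd17b7, a ketosteroid reductase, by 0.40 (adjusted p 0.00311) and Nsdhl by 0.21 (adjusted p 0.0266). Lbr is both a sterol reductase and a receptor for lamin B in the nuclear envelope. Acat2, the thiolase of the first step, fell by 0.38 (adjusted p 0.000384), and 40.7% of its 50-base stretches were shared with Acat3 or Tcp1. Under median-of-ratios scaling the split was 3 higher and 1 lower, with Lbr the lower, and under quantile normalization 3 and 2. Those scalings called 4575 and 4633 of the 6048 genes, 2292 and 2213 of them higher. Acat2 (-0.10) and Hsd17b7 (-0.13) were not called under the first of these scalings, and Nsdhl turned to 0.061.

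**Figure D4:**
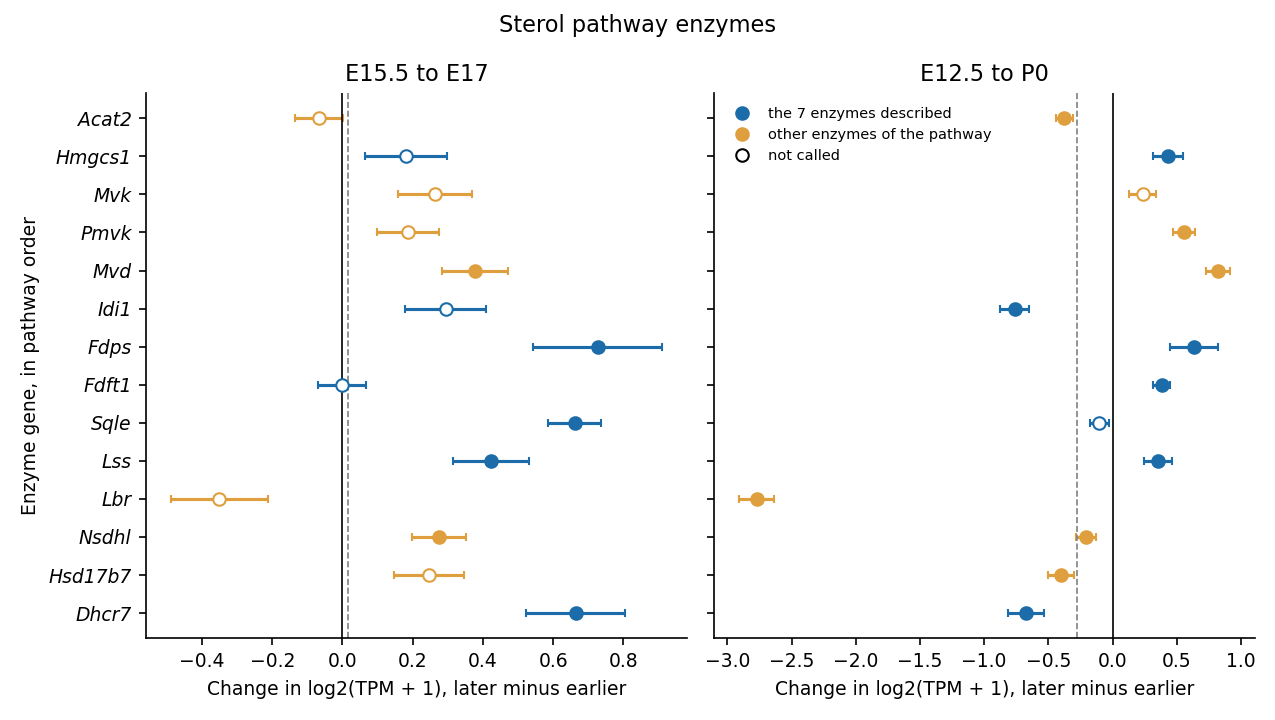
Change in log2(TPM + 1), later minus earlier stage (horizontal axes, which differ in range), for 14 enzymes of the pathway in order (vertical axis), from E15.5 to E17 at left and from E12.5 to P0 at right. Blue points are the 7 enzymes described, orange points 7 others, bars are standard errors from limma, filled points have an adjusted p under 0.05 and the dashed line is the median of all genes tested. From E15.5 to E17 the filled points of both colours are all positive, and from E12.5 to P0 Lbr (-2.77) is the farthest from 0.

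Genes that sense, take up or export sterol gave the context of the enzymes. Of 12 genes of sterol sensing and SREBP control, 2 were tested and reported here. Erlin1 (-0.69, adjusted p 0.000584) and Erlin2 (-0.47, adjusted p 0.00214), which bind sterol-regulated proteins for degradation, both fell from E12.5 to P0, as did 51.0% of all genes. Only Erlin1 kept its call under median-of-ratios scaling.

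Of 16 genes of lipoprotein uptake and transport within the cell, 11 were tested and reported here, with 2 called higher and 7 lower from E12.5 to P0, where 27.1% of all genes were higher and 51.0% lower. Vldlr, a receptor that also binds reelin, rose by 1.41 (adjusted p 4.26e-07), from 12.4 to 34.4 TPM. Osbpl2 also rose (0.53). Lima1 (-1.23), Stard3 (-1.22), Npc2 (-1.16), Npc1 (-0.53), Scarb2 (-0.47), Lrp8 (-0.40) and Scp2 (-0.28) fell, while Osbp (-0.24) and Lrp1 (0.077) did not pass the test. Under median-of-ratios scaling the split was 2 and 4, and under quantile normalization 3 and 4, with Npc1 at 0.046. Those scalings called 4575 and 4633 of the 6048 genes, 2292 and 2213 of them higher. The calls of Lrp8, Npc1 and Scp2 were also lost on leaving out some single libraries of E12.5 or P0. Of 14 genes of efflux, esterification and hydroxylation, 3 were tested. Apoe, the main apolipoprotein of the brain, rose by 1.10 (limma adjusted p 3.54e-06), from 46.5 to 102 TPM. Soat1 (-1.76, adjusted p 3.32e-08), which esterifies cholesterol, and Lipa (-0.96, adjusted p 4.03e-05), which splits the esters in lysosomes, fell.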

How the data were processed

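Per the labels' protocols, frozen neocortex was pulverised in a detergent buffer, the lysate was cleared by centrifugation, and stranded libraries were made from polyadenylated RNA. The authors deposited TPM, 1 column per library. The submitters' processing notes name STAR, Subread and GRCm38.p5; no source used here gives their versions, the annotation or the gene lengths. All value columns matched a sample (0 left over).

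Values were analysed as log2(TPM + 1) for genes whose mean reached 1 TPM (99 left out), with limma 3.58.1 in R 4.3.3: 1 mean per stage, 10 libraries, 5 residual degrees of freedom, variance trend, and Benjamini-Hochberg adjustment over all 6048 genes in each comparison, called under 0.05. Precision rests on the spread pooled over stages (median SE 0.107). TPM keep no depth, so no counting interval is given. The fit was tested on simulated data. Replicate numbers were not used to pair the libraries.

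The enzymes and all lists were chosen with earlier results of these data known. The text names all 7 enzymes, the tested genes of the synthesis, sensing, uptake and efflux lists (some are not reported here, and counts over these lists leave them out), the highest and lowest of the fatty acid and isoprenoid lists, and the 5 genes most like the enzymes; cell type lists are given by sums and counts. Positions and shared 50-base stretches (any strand unless stated, annotated transcripts only) come from GENCODE M21 (GRCm38). Figures used Python 3.11.15 and matplotlib 3.10.9. The 22 alternatives were a pseudocount of 0.1 or 10 TPM, no filter, a minimum mean of 5 TPM, 2 scalings, no trend, array weights, 4 libraries per comparison, a replicate block, each library left out, an adjusted p under 0.01, and, chosen after seeing the data, leaving out both E17 libraries.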

Additional observations from a re-analysis of the deposited data

How the results depend on the processing

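The 7 enzymes in 5 comparisons gave 35 results and 716 alternative values, of which 641 kept the direction and side of the threshold, 29 gained a call, 32 lost one and 14 turned sign. Idi1 and Fdft1 from E14 to E15.5, Sqle from E15.5 to E17, and Idi1, Fdft1 and Dhcr7 from E12.5 to P0 were called under every alternative run. Unless a construction is named, the cause of a change was not tested.

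From E12.5 to E14 the count of enzymes called was 1, but 0 under median-of-ratios scaling, quantile normalization, no variance trend and an adjusted p under 0.01, and 4 with array weights or with the libraries of the 2 stages only. From E14 to E15.5 (3 called) array weights and the libraries of the 2 stages gave 5 each. From E15.5 to E17 (4 called) they gave 2 and 1, and an adjusted p under 0.01 gave 2. From E17 to P0 (2 called) all 3 of these gave 1. With no alternative setting, 528, 3128, 1514 and 2525 of all 6048 genes were called at the 4 steps. Array weights gave 2411, 4600, 758 and 1145, and the libraries of the 2 stages only gave 2479, 4575, 120 and 1126. At the first step, median-of-ratios scaling, quantile normalization and no variance trend called 735, 893 and 531 of all genes. Without both E17 libraries, an alternative chosen after seeing the data, the first step had 2 calls and the second 5. Of all genes, 1770 and 4014 were then called at those steps. Calls over all genes moved as well on leaving out a single library. Leaving out each library in turn gave 0 to 2, 2 to 5, 1 to 6 and 2 to 4 calls for the 4 steps and 4 to 6 from E12.5 to P0. The difference in summed TPM of the enzymes, P0 minus E12.5, was 115.3 and became 259 under median-of-ratios scaling and 159.7 under quantile normalization, and 71.7 to 158.9 on leaving out a library.

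Replicate numbers were not used to pair the libraries. The correlations of the replicate differences between stages ran from -0.37 (E12.5 and E17) to 0.11 (E14 and P0). A spread shared by libraries of unlike replicate number was not tested, and a block on that number cannot take it up. A replicate block left 0 calls from E12.5 to E14, where it called 462 of all 6048 genes.

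Signs turned as follows. Under median-of-ratios scaling, Lss from E12.5 to E14 was 0.049, and from E12.5 to P0 Sqle was 0.17, Nsdhl 0.061 and Osbp 0.029. Under quantile normalization, Lss from E12.5 to E14 was 0.059, Fdps from E14 to E15.5 0.21 and Fdft1 from E15.5 to E17 0.027, and from E12.5 to P0 Sqle was 0.019, Nsdhl 0.034, Npc1 0.046 and Osbp 0.022. On leaving out single libraries, values from E12.5 to E14 ran from -0.34 to 0.044 for Fdps and from -0.061 to 0.050 for Lss, those from E14 to E15.5 from -0.37 to 0.010 for Fdps, and those from E15.5 to E17 from -0.027 to 0.025 for Fdft1. From E17 to P0 they ran from -0.33 to 0.037 for Idi1 and from -0.042 to 0.51 for Fdps, and from E12.5 to P0 Lrp1 reached -0.018. TPM keep no depth, so what depth limits could not be measured.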

Other observations

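Fatty acid synthesis, which draws on the same cytosolic acetyl-CoA and is known to respond to SREBP1, was compared on a list of 15 genes, of which 10 were tested. From E15.5 to E17, 5 of the 10 were called higher and 0 lower, where 14.4% of all genes were called higher and 10.6% lower. From E12.5 to P0, 3 were called higher and 6 lower, near the shares of all genes (27.1% and 51.0%). The split became 4 and 5 under median-of-ratios scaling and under quantile normalization. Of the 6048 genes, those scalings called 4575 and 4633, 2292 and 2213 of them higher. Me1, the cytosolic malic enzyme that supplies NADPH, had the highest change over the whole period (1.75, SE 0.10, limma adjusted p 2.15e-08), from 10.6 to 38.1 TPM. Elovl1, an elongase of long fatty acids, had the lowest (-1.81, SE 0.17, adjusted p 1.56e-06), from 14.1 to 3.33 TPM.

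The side branch that uses farnesyl and geranylgeranyl diphosphate to anchor proteins in membranes had 6 of 13 genes tested. From E12.5 to P0, 1 was called higher and 3 lower, near the shares of all genes (27.1% and 51.0%). The split was 2 and 1 under median-of-ratios scaling and under quantile normalization. Those scalings called 4575 and 4633 of the 6048 genes, 2292 and 2213 of them higher. Rabggta, a subunit of the transferase that prenylates Rab proteins, rose by 1.03 (SE 0.11, adjusted p 5.61e-06), from 9.75 to 21.0 TPM. Zmpste24, a protease that trims prenylated prelamin A, went down from a mean of 43.0 TPM to one of 12.4 TPM (-1.71, SE 0.11, adjusted p 5.87e-08). At the step from E15.5 to E17, 0 of the 6 were called in limma in either direction, where 25.0% of all genes were called. Rabggta alone (1 of the 6) had an unadjusted p under 0.05, and 0 were called under either other scaling. The lists were not tested against each other.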
